A study of Mus musculus with 23 samples.

Results

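The genes described here are 10 genes of the major histocompatibility complex (MHC) class I presentation pathway, out of 48895 gene symbols in the table: *H2-K1*, *H2-D1*, *B2m*, *Tap1*, *Tap2*, *Tapbp*, *Psmb8*, *Psmb9*, *Nlrc5* and *Erap1*. They were chosen by name, each was found in the table, and no measured value entered the choice. RNA sequencing was done on the livers and primary tumors of an orthotopic colorectal cancer model. Control liver (n = 5) came from male BALB/c mice, 4 to 6 weeks old, whose cecal serosa had received medium without serum and without cells. Pre-metastatic liver (n = 9) and primary tumor (n = 9) came from the same 9 male BALB/c mice of that age, whose cecal serosa had received CT26 cells, a colon carcinoma line derived from BALB/c mice, and all organs were taken 3 weeks after the injection. The tumors therefore grew from 1 cell line in a host with an intact immune system, and the libraries hold every cell of the piece of tissue taken.

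Class I molecules show peptides from inside a cell to CD8+ T cells. Proteins are cut by the proteasome, which takes up inducible subunits when cells sense interferon, and the peptides are pumped into the endoplasmic reticulum, trimmed and loaded onto a heavy chain bound to beta-2 microglobulin. Interferon gamma induces most of these genes, in part through IRF1, and NLRC5 is a transcription factor partner that binds class I promoters through RFX proteins. In the liver, hepatocytes are known for low class I levels, while Kupffer cells, endothelium and other leukocytes carry more.

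Total counts were 51064615 to 60393702 in control liver, 44587556 to 79773163 in pre-metastatic liver and 47005276 to 70884436 in the primary tumor, and the smallest count of any of the 10 genes in any library was 477. Levels are given as RPKM, the count divided by gene length and by the library's total count, and can be compared between genes. Of the 5 hepatocyte markers, the summed level was 32333 RPKM or more in every liver and 5.47 to 258 RPKM in tumors, where the tumors of mice M10 and M12 were the highest, with *Alb* at 86.4 and 173 RPKM against 15.0 or less in the other tumors. Tumors held 495 to 798 RPKM of 4 fibroblast markers but only 3.88 to 14.5 RPKM of 5 epithelial markers and 1.22 to 6.29 RPKM of 4 colon mucosa markers. An index of 6 clock genes, cut at its widest gap, put 5 livers (C7, M1, M2, M10 and M12) in a later phase of the day than the other 9. The phase of C7 is uncertain, as its index of 0.98 lay about midway between M7 (-0.10) and M12 (2.05).

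In the mm10 coordinates of the table, 7 of the 10 genes lie on chromosome 17. *Psmb9* (chr17:34182030-34187330), *Tap1* (chr17:34187556-34197225), *Psmb8* (chr17:34198195-34201454) and *Tap2* (chr17:34204479-34216321) form a block of 34.3 kb, and *Psmb9* and *Tap1* point away from each other with 225 bases between their starts. *H2-K1* (chr17:33996012-34000341), *Tapbp* (chr17:33919478-33929290) and *H2-D1* (chr17:35263094-35267497) lie on the same chromosome, while *B2m* (chr2:122147687-122153082), *Nlrc5* (chr8:94434354-94527272) and *Erap1* (chr13:74639624-74692537) lie elsewhere. The mm10 genome is that of C57BL/6J, which carries the H2b haplotype, whereas BALB/c mice and CT26 cells carry H2d. Levels of *H2-K1* and *H2-D1* are therefore, in all 3 groups, those of reads that matched the b-haplotype genes. The same limit holds for the other *H2* heavy chain genes described below. The *H2-K1* and *H2-D1* promoters shown are also those of the b haplotype. Of all stretches of 50 bases in their transcripts, 9.63% for *H2-K1* and 12.8% for *H2-D1* also occur in another gene, so the split of reads between heavy chain genes is uncertain, whereas the share was 0% for *B2m*, *Psmb9*, *Nlrc5* and *Erap1*.

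The promoters of the heavy chains and of *B2m*, the light chain, are shown because an X2 box and a Y box, promoter elements known from class I genes, were found in all 3 at the same spacing. RefSeq windows (GRCm38.p6) of 250 bases before and 50 bases after the transcription start were at hand for 8 of the 10 genes. Each line gives the 250 bases before the start, and capitals mark, on either strand, the interferon-response letters GAAANNGAAA or the shorter GAANNGAAA, the NF-kB palindrome GGGGATTCCCC, and an X2 box (TGACG) and a Y box (ATTGG) with 20 bases between them.
H2-K1, chr17:34000348-34000597, minus strand: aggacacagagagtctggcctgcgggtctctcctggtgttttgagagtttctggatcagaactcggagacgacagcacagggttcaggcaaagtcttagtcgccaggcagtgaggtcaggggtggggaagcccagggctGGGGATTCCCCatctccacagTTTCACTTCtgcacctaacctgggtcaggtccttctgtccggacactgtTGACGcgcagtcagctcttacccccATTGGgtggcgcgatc
H2-D1, chr17:35262844-35263093, plus strand: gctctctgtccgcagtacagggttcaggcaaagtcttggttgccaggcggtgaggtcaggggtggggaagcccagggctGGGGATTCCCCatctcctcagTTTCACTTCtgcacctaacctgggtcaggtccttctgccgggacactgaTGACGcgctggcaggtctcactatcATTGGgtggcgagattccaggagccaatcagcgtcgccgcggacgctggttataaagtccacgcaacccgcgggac
B2m, chr2:122147437-122147686, plus strand: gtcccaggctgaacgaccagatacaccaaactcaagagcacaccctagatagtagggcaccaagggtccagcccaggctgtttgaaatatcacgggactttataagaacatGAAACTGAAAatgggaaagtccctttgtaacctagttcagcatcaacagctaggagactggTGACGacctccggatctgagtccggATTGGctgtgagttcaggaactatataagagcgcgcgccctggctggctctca

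The paired X2 and Y boxes were found in these 3 promoters and in 0.0999% of the 27025 genes with a window, and the spacing was set after these 3 sequences had been read. The palindrome was found in *H2-K1* and *H2-D1* and in 0.0333% of all genes. The interferon-response letters GAAANNGAAA were found in *B2m* and, across its start, in *Erap1* (3.99% of all genes), and the shorter GAANNGAAA in *H2-K1* and *H2-D1* (8.68% of all genes). The gamma-activated site TTCNNNGAA was found among the 8 windows only in *Psmb8* (9.55% of all genes). With the X2 and Y boxes counted only as a pair, none of these motifs was found in the windows of *Tap1*, *Psmb9* and *Tapbp*.

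The first comparison asks whether class I presentation genes in the liver had changed before metastases formed. In pre-metastatic liver, 8 of the 10 genes were higher than in control liver and none was lower, by edgeR's quasi-likelihood test on TMM-scaled counts with Benjamini-Hochberg adjusted p under 0.05 over 16987 genes. Over all these genes, 17.7% were called higher and 13.3% lower. The genes that rose most were the inducible proteasome subunit *Psmb8*, the peptide pump subunit *Tap1* and the transactivator *Nlrc5*, each close to 2-fold. The inducible subunit *Psmb9* followed, at 0.83 on the log2 scale, while the heavy chains and *B2m* differed by less. The median log2 fold change was 0.56 over the 10 genes and 0.01 over all genes. Pre-metastatic livers also held more leukocyte RNA, 14.1 to 36.0 against 5.90 to 13.8 summed RPKM of 4 leukocyte markers and 20.7 to 56.2 against 9.67 to 23.3 of 5 macrophage markers, and none of these markers was at 0 in all libraries of a group. Their part in the result was not tested, and in bulk tissue more cells of a type and more RNA per cell cannot be told apart.

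**Figure D1:**
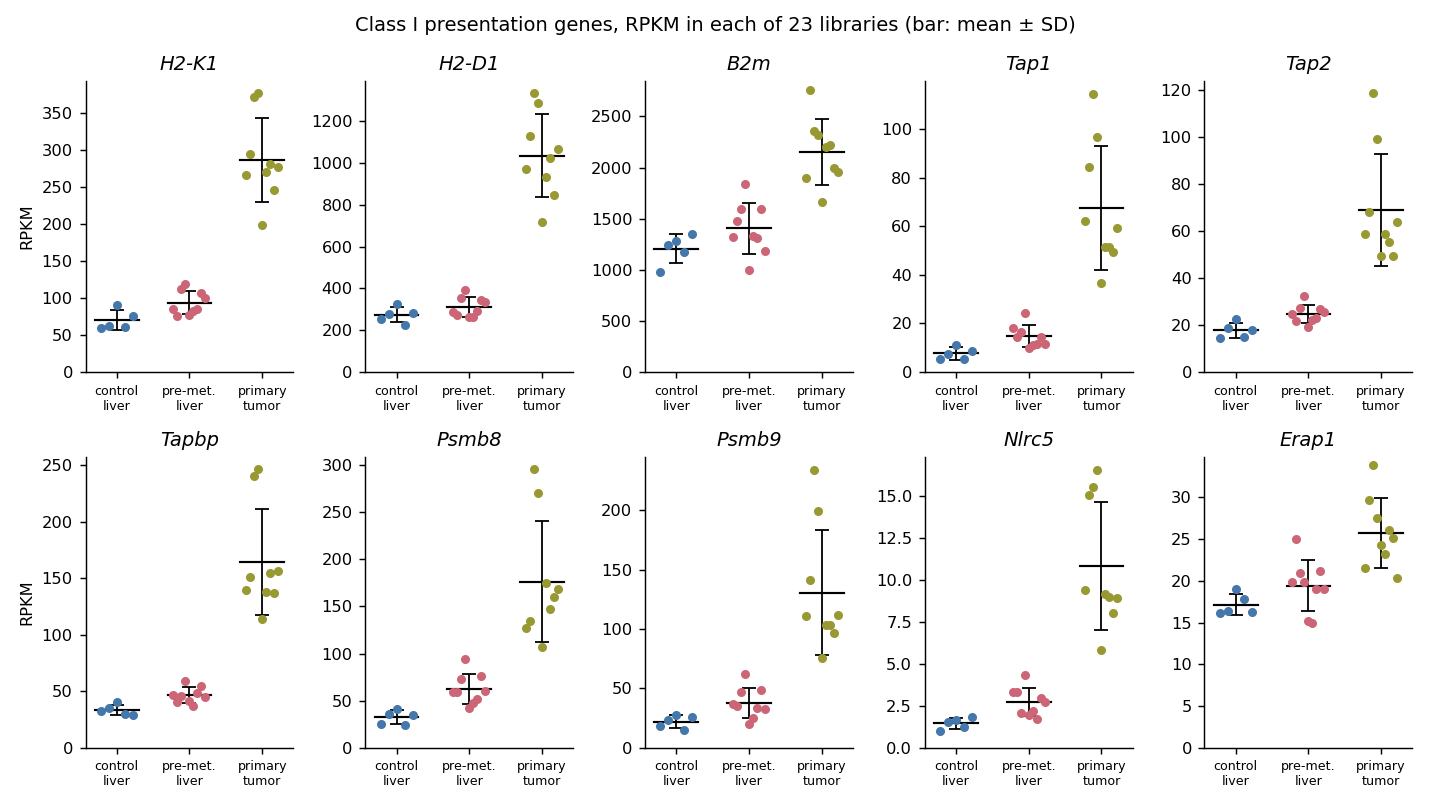
RPKM (y axes, from 0) of the 10 genes in each of 23 libraries, 1 panel per gene, with the mean (long bar) and SD (error bar) of control liver (n = 5), pre-metastatic liver (n = 9) and primary tumor (n = 9) on the x axes. On this scale the mean of every gene rises from control liver to pre-metastatic liver to tumor, and *Psmb8* is the only gene whose control and pre-metastatic livers do not overlap.

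*Psmb8* (LMP7) and *Psmb9* (LMP2) encode the inducible catalytic subunits that replace standard subunits in the immunoproteasome. *Psmb8* was at 24.8, 36.0, 41.2, 24.4 and 35.2 RPKM in control livers C1, C4, C5, C6 and C7, and at 42.6 (lowest), 59.3 (median) and 94.3 RPKM (highest) in pre-metastatic livers. No pre-metastatic liver overlapped a control liver in RPKM, which was true of 1 of the 10 genes and, in this direction, of 4.85% of all genes tested. On TMM-scaled counts, 3 of the 10 genes were higher without overlap. Its log2 fold change was 1.03 ± 0.16 (SE), or 2.03-fold, with an adjusted p of 0.000271 by edgeR. *Psmb9* was at 18.6, 23.2, 27.5, 15.2 and 25.9 RPKM in the same control livers and at 20.1, 35.3 and 62.2 RPKM (lowest, median and highest) in pre-metastatic livers. The livers of M6 and M7, at 20.1 and 25.0 RPKM, lay within the control range and the other 7 above it. Its log2 fold change was 0.83 ± 0.20 (edgeR, adjusted p = 0.00492).

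*Tap1* and *Tap2* encode the subunits of the peptide transporter, and *Tapbp* encodes tapasin, which holds the empty heavy chain beside it. *Tap1* was at 5.44, 7.56, 11.2, 5.18 and 8.80 RPKM in control livers C1, C4, C5, C6 and C7 and at 9.93, 14.3 and 24.3 RPKM (lowest, median and highest) in pre-metastatic livers. Only the liver of M6 fell inside the control range. The difference was 1.01 ± 0.19 on the log2 scale (edgeR, adjusted p = 0.00130). *Tap2* was at 14.6 to 22.5 RPKM in control livers and 19.1, 24.8 and 32.5 RPKM in pre-metastatic livers, with 6 of 9 above every control liver and a log2 fold change of 0.56 ± 0.11 (edgeR, adjusted p = 0.00179). *Tap1* was thus at 0.422 ± 0.066 of the *Tap2* level in control liver (SD, n = 5) and 0.585 ± 0.108 in pre-metastatic liver (SD, n = 9), levels per gene length that are given as a description. *Tapbp* was at 29.2 to 40.7 RPKM in control livers and 36.8, 45.7 and 59.2 RPKM in pre-metastatic livers, of which only that of M7 was within the control range (log2 fold change 0.55 ± 0.11, edgeR, adjusted p = 0.00139).

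*H2-K1* and *H2-D1* encode the classical heavy chains of this annotation, and *B2m* the light chain shared by all class I molecules. *H2-K1* was at 59.3, 61.6, 90.5, 60.9 and 76.0 RPKM in control livers and at 75.1, 85.6 and 118.9 RPKM (lowest, median and highest) in pre-metastatic livers. Control liver C5 was higher than 5 of the 9 pre-metastatic livers. The log2 fold change was 0.51 ± 0.13 (edgeR, adjusted p = 0.00774). *H2-D1* was at 227 to 325 RPKM in control livers and 262, 293 and 391 RPKM in pre-metastatic livers. Its log2 fold change of 0.27 ± 0.11 did not pass the test (edgeR, adjusted p = 0.0820). It passed only without control liver C5 or without pre-metastatic liver M2 (edgeR, adjusted p = 0.0473 and 0.0456). *B2m* was at 979, 1240, 1277, 1177 and 1352 RPKM in control livers and at 997, 1335 and 1836 RPKM in pre-metastatic livers. Only 4 of the 9 pre-metastatic livers were above every control liver, and its log2 fold change of 0.30 ± 0.10 passed narrowly (edgeR, adjusted p = 0.0372). This call was lost in the 9 early-phase livers alone, where the log2 fold change was 0.33 (adjusted p = 0.111), with clock phase as a term (adjusted p = 0.0526), with library totals in place of TMM (0.22, adjusted p = 0.232), with no count minimum (0.29, adjusted p = 0.104), and without any of control livers C1, C4 and C6 or pre-metastatic livers M4, M5 and M10 (adjusted p up to 0.0993, without C1).

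*Nlrc5*, the class I transactivator, was at 1.0, 1.56, 1.64, 1.25 and 1.84 RPKM in control livers C1, C4, C5, C6 and C7 and at 1.73, 2.71 and 4.36 RPKM (lowest, median and highest) in pre-metastatic livers. It had the lowest level of the 10 genes, and only the liver of M8 was within the control range. Its log2 fold change was 0.99 ± 0.18 (edgeR, adjusted p = 0.00101). *Erap1* encodes the aminopeptidase that trims peptides in the endoplasmic reticulum. It was at 16.2 to 19.1 RPKM in control livers and 14.9, 19.8 and 25.0 RPKM in pre-metastatic livers, and those of M6 and M7 were below every control liver. Its log2 fold change of 0.26 ± 0.10 did not pass the test (edgeR, adjusted p = 0.0532). *Erap1* passed narrowly with DESeq2 (adjusted p = 0.0418), with upper-quartile scaling (edgeR, adjusted p = 0.0397) and without any of C5, M5, M6 and M7. In the early-phase livers alone it was at 0.11 (edgeR, adjusted p = 0.453). Among the 9 early-phase livers alone (4 control, 5 pre-metastatic), 7 of the 10 genes passed, all higher, where 14.7% of all genes tested were called higher and 10.9% lower.

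The RNA level of each inducible proteasome subunit was set against that of its standard counterpart within each library. No scaling between libraries can change this ratio. Exchange of subunits in the proteasome itself was not measured, and the part of leukocytes in the ratios was not tested. The standard subunits *Psmb5*, *Psmb6* and *Psmb7* all fell in pre-metastatic liver while their inducible counterparts *Psmb8*, *Psmb9* and *Psmb10* all rose. *Psmb5* was 76.2 to 103.5 RPKM in control livers and 41.1 to 71.5 RPKM in pre-metastatic livers, without overlap, and fell by 0.68 on the log2 scale (SE 0.09, edgeR, adjusted p = 0.000119). *Psmb6* fell by 0.49 (SE 0.08) and *Psmb7* by 0.43 (SE 0.09), with edgeR adjusted p values of 0.000383 and 0.00243. *Psmb10*, which lies outside the 10 genes, rose by 0.79 ± 0.17 (edgeR, adjusted p = 0.00311).

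The *Psmb8/Psmb5* ratio was 0.294, 0.381, 0.398, 0.265 and 0.463 in control livers C1, C4, C5, C6 and C7, and 0.842, 1.25 and 1.46 (lowest, median and highest) in pre-metastatic livers. The *Psmb9/Psmb6* ratio was 0.0932 to 0.169 in control livers and 0.226 to 0.437 in pre-metastatic livers, and the *Psmb10/Psmb7* ratio was 0.0955 to 0.168 and 0.211 to 0.394. In all 3 pairs every pre-metastatic liver was above every control liver. Differences on the log2 scale were 1.70 ± 0.18 for *Psmb8/Psmb5* (3.26-fold), 1.31 ± 0.20 for *Psmb9/Psmb6* (2.47-fold) and 1.22 ± 0.17 for *Psmb10/Psmb7* (2.33-fold). Each had an adjusted p of 0.0004995 over 9 ratio tests, from two-sided exact permutation tests whose smallest possible p with these group sizes is 0.0004995.

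**Figure D2:**
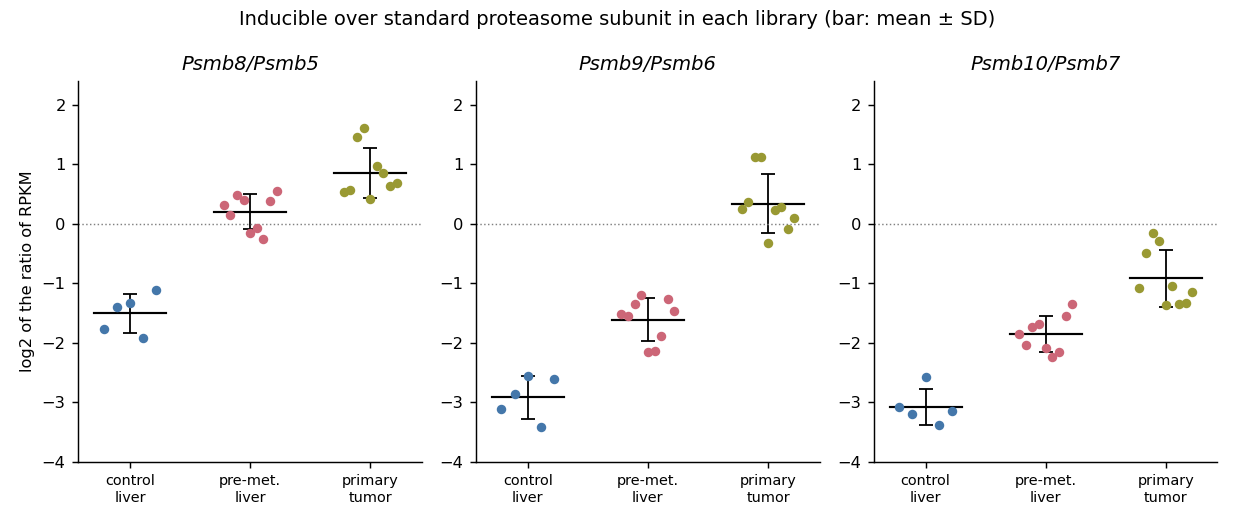
Log2 ratio of the RPKM of an inducible to that of its standard proteasome subunit (y axes) in each library of control liver (n = 5), pre-metastatic liver (n = 9) and primary tumor (n = 9), with mean and SD. The dotted line marks equal levels, control livers lie lowest in all 3 pairs without overlapping the pre-metastatic livers, and tumors lie highest on average.

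The ratios also differed between the primary tumor and both kinds of liver. The *Psmb8/Psmb5* ratio was 1.34, 1.61 and 3.04 (lowest, median and highest) in tumors, the *Psmb9/Psmb6* ratio 0.802, 1.19 and 2.19, and the *Psmb10/Psmb7* ratio 0.388, 0.474 and 0.897. Against pre-metastatic liver, only *Psmb9/Psmb6* did not overlap, at a difference of 1.95 ± 0.20 (log2, 3.87-fold, adjusted p = 0.000370 by the exact permutation test). *Psmb8/Psmb5* differed by 0.66 ± 0.17 and *Psmb10/Psmb7* by 0.94 ± 0.19, both with an adjusted p of 0.0004995 (exact permutation test). Against control liver, the differences were 2.36 ± 0.20, 3.26 ± 0.23 and 2.16 ± 0.21 for the 3 pairs in the same order, without overlap and with an adjusted p of 0.0004995 each (exact permutation test). Of the 2 inducible subunits among the 10 genes, *Psmb9* thus exceeded its counterpart in 7 of 9 tumors and in none of the 14 livers, and *Psmb8* exceeded its counterpart in 9 of 9 tumors, 6 of 9 pre-metastatic livers and none of 5 control livers.

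The second question is how the tumor differed from liver. Relative to the total count, the 10 genes were all higher in the tumor, but the direction for 2 of them depended on the scaling. Whether *Tap2* and *Psmb8* passed depended on it as well. The median log2 fold change over all genes was 1.30 when libraries were scaled by their totals and 0.13 under TMM, which centers the bulk of genes. A median of 19.7% of pre-metastatic liver counts fell on the 10 genes with most counts, and 5.45% of tumor counts. The part of these most counted genes in the difference between the scalings was not tested. Under TMM, 8648 genes (43.8%) were called higher and 7809 (39.5%) lower than in pre-metastatic liver. With library totals, 13352 (67.6%) were called higher and 4207 lower. Under TMM, 6 of the 10 genes were higher in the tumor, *B2m* and *Erap1* were lower, and *Tap2* and *Psmb8* did not pass (edgeR), whereas all 10 were called higher with library totals. In RPKM, 8 of the 10 genes did not overlap between tumor and pre-metastatic liver, against 52.9% of all genes tested in this direction. On TMM-scaled counts, 0 of the 10 were higher in the tumor without overlap, so the separation held only relative to library totals. A share over all genes is not given on the TMM scale. The pre-metastatic livers here are those of the first comparison, so values of the comparisons are not independent of each other.

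*Tap1* was at 36.7, 59.2 and 114.3 RPKM (lowest, median and highest) in tumors, all above the highest pre-metastatic liver at 24.3 RPKM. Its log2 fold change against pre-metastatic liver was 1.03 ± 0.19 under TMM (edgeR, adjusted p = 5.49e-05) and 2.20 with library totals. *Nlrc5* was at 5.86, 9.20 and 16.6 RPKM in tumors, also without overlap, with log2 fold changes of 0.81 ± 0.19 (edgeR, adjusted p = 0.000630) and 1.98 on the same scales. These genes were the furthest above pre-metastatic liver of the 10 under TMM. *Tapbp* (114.0 to 247 RPKM in tumors), *Psmb9* (75.8 to 234 RPKM), *H2-D1* (716 to 1336 RPKM) and *H2-K1* (198 to 377 RPKM) had TMM log2 fold changes of 0.64, 0.63, 0.55 and 0.43, and all were above every pre-metastatic liver in RPKM. *Tap2* (49.5 to 119 RPKM) and *Psmb8* (107 to 295 RPKM) did not overlap with pre-metastatic liver in RPKM either, but their TMM log2 fold changes of 0.30 ± 0.15 and 0.32 ± 0.18 did not pass (edgeR, adjusted p = 0.0743 and 0.0965). When the 2 organs of each mouse were paired in the model, *Psmb8* passed (log2 fold change 0.27, edgeR, adjusted p = 0.0323).

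*B2m* and *Erap1* changed sign with the scaling. *B2m* was at 1659, 2206 and 2758 RPKM (lowest, median and highest) in tumors, and 8 of 9 tumors were above the highest pre-metastatic liver, at 1836 RPKM. Its log2 fold change was -0.56 ± 0.12 under TMM (edgeR, adjusted p = 0.000185) and 0.61 with library totals (edgeR, adjusted p = 0.000116). *Erap1* was at 20.3, 25.1 and 33.9 RPKM in tumors, 5 of which were above the highest pre-metastatic liver, at 25.0 RPKM, and its log2 fold change was -0.78 ± 0.10 under TMM (edgeR, adjusted p = 3.54e-07) and 0.41 with library totals (edgeR, adjusted p = 0.00180). The level of a heavy chain relative to that of *B2m* within a library needs no scaling. *H2-D1* was at 0.228 ± 0.029 of the *B2m* level in control liver (SD, n = 5), 0.224 ± 0.031 in pre-metastatic liver (SD, n = 9) and 0.480 ± 0.064 in tumors (SD, n = 9). *H2-K1* was at 0.0578 ± 0.0084, 0.0673 ± 0.0095 and 0.133 ± 0.018 of the *B2m* level in the same groups. For both heavy chains the lowest tumor, at 0.409 for *H2-D1* and 0.107 for *H2-K1*, was above the highest liver, at 0.282 and 0.0845. These ratios were formed after the levels had been seen and carry no test.

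**Figure D3:**
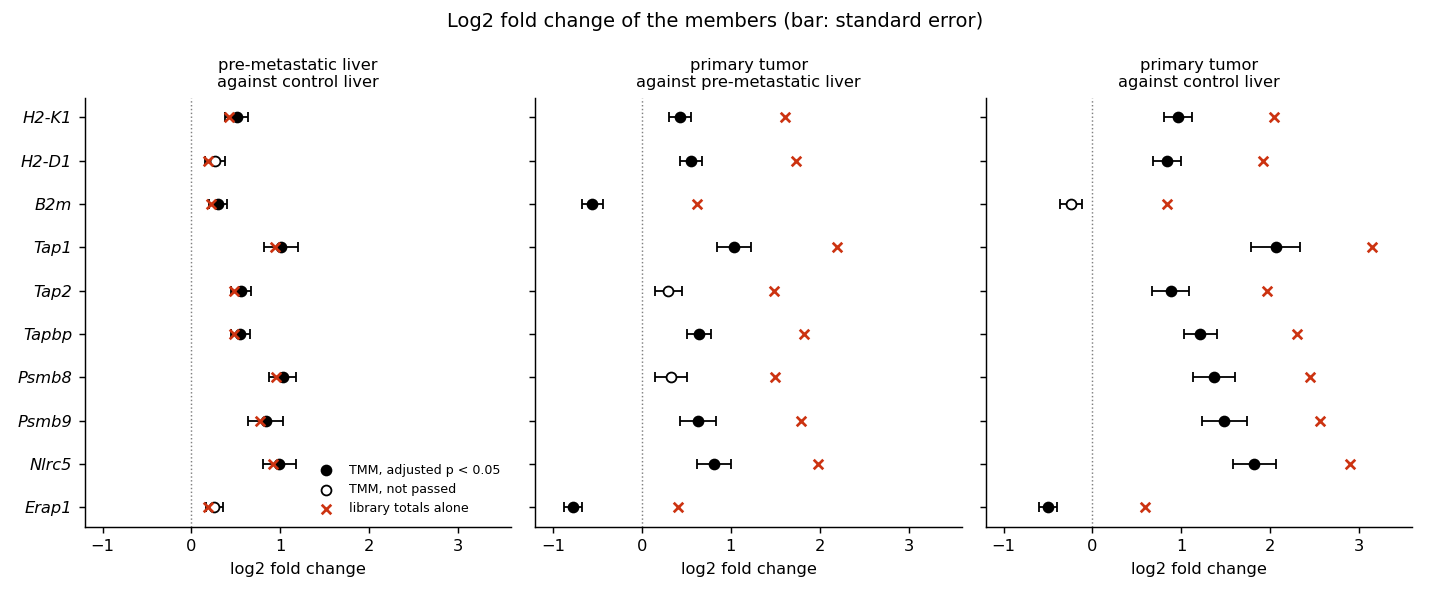
Log2 fold change (x axes) of each of the 10 genes in the 3 comparisons under TMM (circles, filled where the edgeR adjusted p is under 0.05, with SE) and with library totals alone (crosses). The scalings nearly coincide between the livers, and in both tumor comparisons crosses lie about 1 unit to the right of circles, so that *B2m* and *Erap1* lie below 0 under TMM and above 0 with library totals.

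Against control liver, 8 of the 10 genes were higher in the tumor under TMM, *Erap1* was lower, and *B2m* did not pass (edgeR), with 44.2% of 19320 genes called higher and 38.1% lower. With library totals, 12859 genes (66.6%) were called higher and 4131 lower, and all 10 genes were called higher, *B2m* and *Erap1* among them. In RPKM, none of the 10 overlapped between tumor and control liver, against 56.4% of all genes in this direction. On TMM-scaled counts, 8 of the 10 were higher in the tumor without overlap. The log2 fold change of *Tap1* was 2.06 ± 0.28 under TMM (4.18-fold, edgeR, adjusted p = 3.74e-06), followed by *Nlrc5* at 1.82 ± 0.24, *Psmb9* at 1.48 ± 0.26 and *Psmb8* at 1.37 ± 0.24. *Tapbp* (1.22), *H2-K1* (0.96), *Tap2* (0.88) and *H2-D1* (0.84) followed. *Erap1* was at -0.50 ± 0.10 (edgeR, adjusted p = 0.000327) and *B2m* at -0.24 ± 0.13 (edgeR, adjusted p = 0.0931) under TMM, while library totals gave 0.59 and 0.84. Tumors held 107.9 to 217 summed RPKM of the 4 leukocyte markers and 158 to 319 of the 5 macrophage markers, above every liver, and the part of these cells in the tumor values was not tested.

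Within the 9 pre-metastatic livers and within the 9 tumors, most of the 10 genes varied together from mouse to mouse, with a median Pearson's r over the 45 pairs of genes of 0.76 (lowest 0.23) and 0.87 (lowest 0.47), as a description over genes that share libraries. The liver of M5 had the highest RPKM among pre-metastatic livers for 9 of the 10 genes, *Erap1* excepted, and the liver of M6 the lowest for 5. This order was not particular to them. *Psmb5*, *Psmb6* and *Psmb7* were also highest in the liver of M5, and *Psmb6* was lowest in that of M6. Across these 9 livers their Pearson's r with the mean of the 10 genes was 0.59, 0.71 and 0.67. *Alb* was lowest in the liver of M5 (15823 RPKM) and highest in that of M6 (46034 RPKM), and its part was not tested. Among tumors, M4 was highest for 6 genes, M5 for 3 and M2 for *B2m*, while M6 was lowest for 9. By the mean of the 10 genes, each standardized within its group, the tumors of M4 and M5 were at 1.51 and 1.21 SD and their livers at 0.53 and 1.54 SD, whereas M6 was the lowest in both organs, at -1.35 SD in the tumor and -1.31 SD in the liver. *Irf1*, which encodes an interferon-induced transcription factor, was at 86.0 and 77.3 RPKM in the tumors of M4 and M5 and at 36.1 RPKM in that of M6. The tumor of M2 was above that of M5 in *Irf1*, at 83.1 RPKM, and the tumor of M10 was the lowest, at 30.4 RPKM. In the liver *Irf1* was highest in M5, at 19.7 RPKM, and lowest in M6, at 7.84 RPKM. *Cd8a*, a marker of cytotoxic T cells, was at 2.18 RPKM in the liver of M5 and at most 0.408 RPKM in the other livers. The part of T cells in the high liver of M5 was not tested, and without that library *B2m* no longer passed and *Erap1* did (edgeR, adjusted p = 0.0578 and 0.0395), while the other 8 genes kept their calls.

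**Figure D4:**
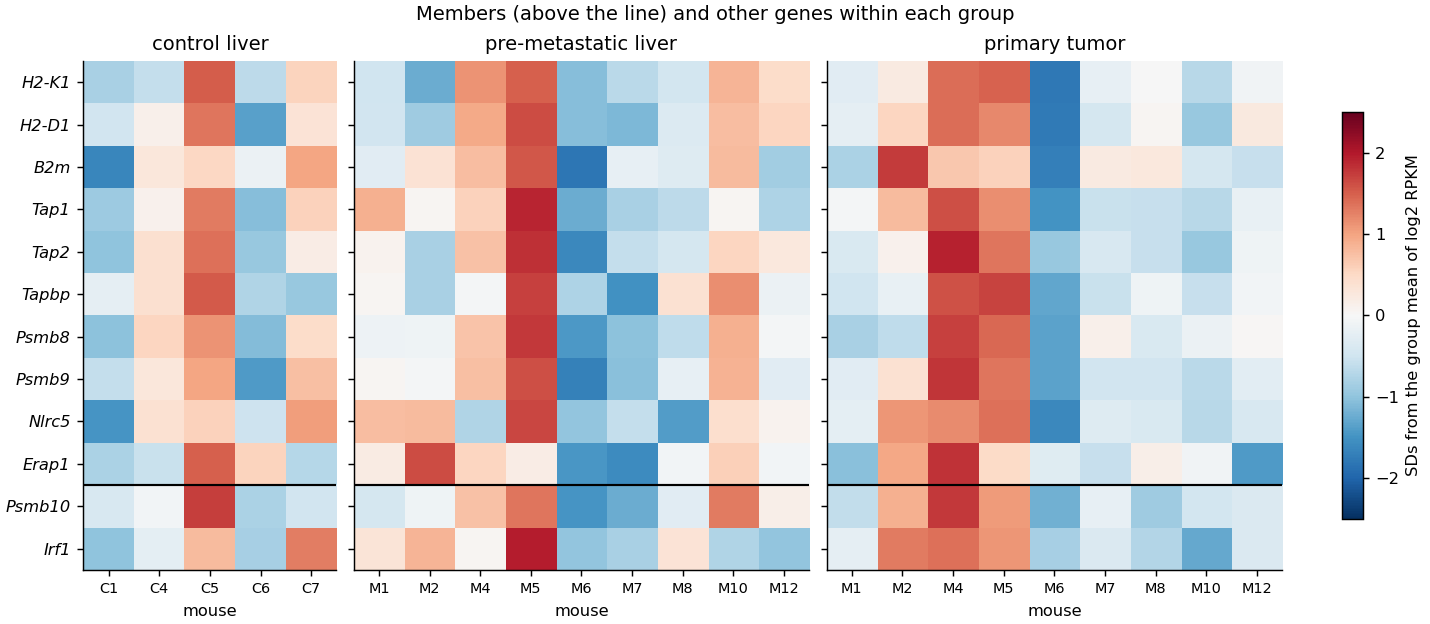
Deviation of log2 RPKM from the group mean, in SDs of that group (color), of the 10 genes (above the line) and of *Psmb10* and *Irf1* (below it) in each mouse (x axis) of control liver, pre-metastatic liver and primary tumor. M5 is high in both organs, M4 in the tumor, and M6 is low in both organs for most genes.

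After the group means were removed, the correlation of each gene with the mean of the other 9 over the 23 libraries (Pearson's r, log2 CPM, counts scaled to the library total) was 0.97 for *Psmb9*, 0.92 for *Tap1* and *Tap2*, 0.91 for *H2-D1*, and lowest for *B2m* at 0.74 and *Erap1* at 0.59. The median over the 45 pairs of genes was 0.78. Of 20115 genes, the 5 outside the list most like the mean of the 10 were *Gm12250* (r = 0.94), *Psmb10* (0.93), *Psme1* (0.92), *Psme2* (0.92) and *H2-T10* (0.91). These are descriptions over points that share libraries, depth and mice. Within the 9 pre-metastatic livers alone, 2 of these 5 were among the 5 highest (*Gm12250* and *Psme2*), and within the 9 tumors alone 1 was (*Psme2*). *Rfx5*, which encodes the RFX subunit that NLRC5 needs at the promoter, was at 0.19, and *Alb* at -0.21.

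The other genes of the pathway were taken from lists of 48 genes. Of 15 other heavy chain genes, 14 were tested in liver, of which 10 were higher and 0 lower in pre-metastatic liver. Over all genes tested, 17.7% were called higher and 13.3% lower. The median log2 fold change of the 14 was 0.62 against 0.01 for all genes. *H2-Q10*, which encodes a secreted class I molecule made by hepatocytes, was at 136 to 249 RPKM in control livers and 387 to 737 RPKM in pre-metastatic livers, without overlap (log2 fold change 1.73 ± 0.19, edgeR, adjusted p = 3.58e-05). Its rise was larger than that of any of the 10 genes, and in tumors it was at 0.607 to 3.24 RPKM, highest in the tumor of M12, which also held the most *Alb*. *H2-T10* rose by 0.93 ± 0.12 in pre-metastatic liver (edgeR, adjusted p = 7.77e-05). Of the 50-base stretches of *H2-T22*, 34.5% occur in other genes, most of them in *H2-T10*. This share was 19.0% for *H2-Q10*, 21.8% for *H2-Q4* and 13.6% for *H2-T23*. *H2-Q6*, which shares 32.0% of its 50-base stretches with other genes, was at -0.41 ± 0.17 and did not pass (edgeR, adjusted p = 0.0886).

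In the tumor, some of these heavy chains were higher than in liver and others lower. *H2-M3*, which presents formylated peptides, was at 31.9 to 49.5 RPKM in tumors against 4.28 RPKM or less in livers (log2 fold change 2.45 ± 0.10 against pre-metastatic liver under TMM and 3.63 with library totals). *H2-Q4* was at 189 to 387 RPKM in tumors against 40.3 or less in livers (1.85 ± 0.14 and 3.04). *H2-Q10* and *Cd1d1*, which presents lipids, were the lowest of the list in the tumor, at -9.95 ± 0.39 and -7.99 ± 0.32 under TMM and -8.77 and -6.81 with library totals. *H2-T23*, which encodes Qa-1, the ligand of NKG2A receptors, was also lower under both scalings, at -2.45 ± 0.17 and -1.26. Of the 15 genes, 7 were called higher and 5 lower than in pre-metastatic liver under TMM, and 9 higher and 4 lower than in control liver. Over all genes tested, 43.8% were called higher and 39.5% lower in the first comparison, and 44.2% and 38.1% in the second. The counts against pre-metastatic liver lie near these shares. The median log2 fold change of the 15 genes was 0.15 there, against 0.13 for all genes. Against control liver these medians were 0.84 and 0.18. With library totals, 11 and 12 of the 15 genes were above 0 in these comparisons.

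**Figure D5:**
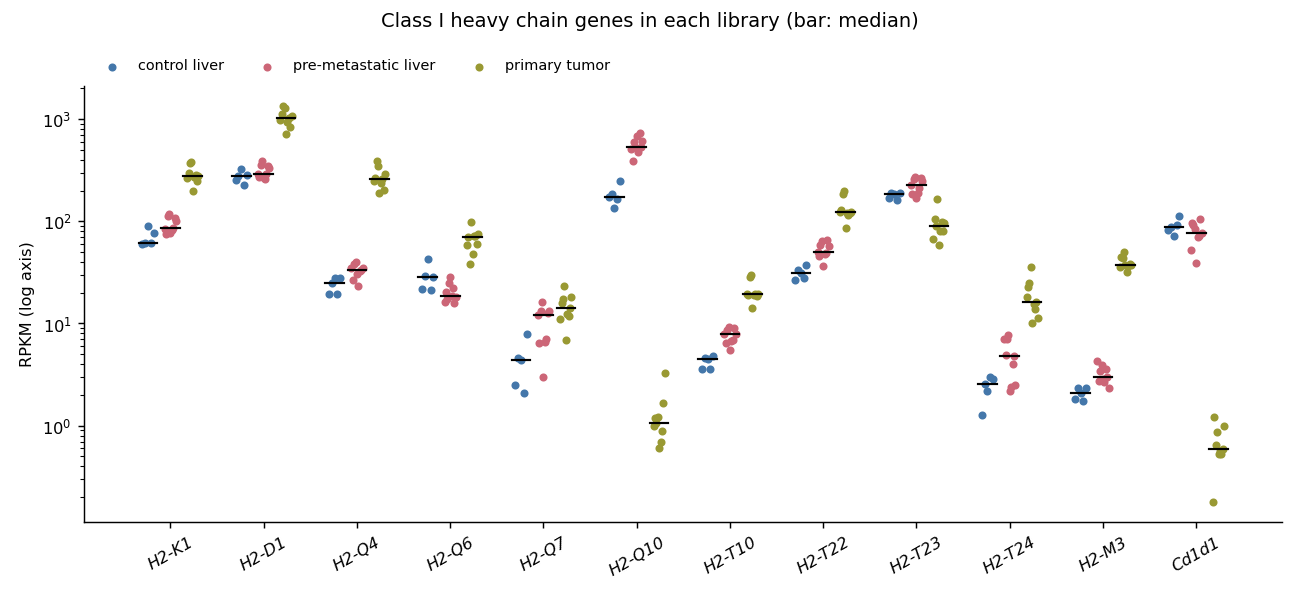
RPKM on a log axis (y) of *H2-K1*, *H2-D1* and 10 other class I heavy chain genes (x) in each library of control liver (n = 5), pre-metastatic liver (n = 9) and primary tumor (n = 9), with medians as bars. *H2-Q10* and *Cd1d1* are near 1 RPKM in tumors and far higher in both kinds of liver, while *H2-Q4* and *H2-M3* are highest in tumors.

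Of the general chaperones of peptide loading (*Calr*, *Canx* and *Pdia3*) none passed in the liver comparison, with log2 fold changes of -0.07 to 0.19, while *Tapbpl*, the tapasin-related editor, rose by 0.84 ± 0.11 (edgeR, adjusted p = 7.77e-05). Under TMM all 4 fell below pre-metastatic liver in the tumor, *Calr* (-1.29) and *Pdia3* (-1.03) the most, but with library totals only *Calr* stayed below 0. *Psme1* and *Psme2*, which form the proteasome activator PA28, rose by 0.65 ± 0.12 and 0.37 ± 0.10 in pre-metastatic liver (edgeR, adjusted p = 0.00104 and 0.00862), and *Psme3*, which forms another activator, fell by 0.23 (SE 0.08, edgeR, adjusted p = 0.0371). Against pre-metastatic liver, *Psmb6* and *Psmb7* were lower in the tumor under TMM, at -1.36 and -0.73, and *Psmb7* was above 0 (0.44) with library totals. *Psmb5* was at -0.38 and 0.79 on these scales. Of the inducible genes outside the 10, *Psme2* was higher than in pre-metastatic liver (0.39 ± 0.11 under TMM, edgeR, adjusted p = 0.00339), while *Psmb10* (0.26 ± 0.20) and *Psme1* (0.10 ± 0.12) did not pass (edgeR, adjusted p = 0.217 and 0.414). Against control liver, all 3 were higher under TMM, at 1.08 for *Psmb10*, 0.78 for *Psme1* and 0.79 for *Psme2*. Of 4 other peptidases, 1 passed in the livers (*Lnpep*, which trims peptides for cross-presentation, 0.58 ± 0.19, edgeR, adjusted p = 0.0280). All 4 were higher in the tumor than in either liver, *Lnpep* the most (2.0 and 2.60 under TMM) and *Npepps* next (0.80 and 0.84). Over all genes tested, 43.8% and 44.2% were called higher and 39.5% and 38.1% lower in these 2 tumor comparisons under TMM.

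Among 18 genes of interferon signaling and class I transcription control, 16 were tested in the livers. Of these, 6 were higher and 1 lower in pre-metastatic liver, with a median log2 fold change of 0.26. Over all genes tested, 17.7% were called higher and 13.3% lower. *Ifngr2*, the signaling chain of the interferon gamma receptor, rose by 0.69 ± 0.13 (edgeR, adjusted p = 0.00141). *Irf1*, at 6.42 to 11.9 RPKM in control livers and 7.84 to 19.7 RPKM in pre-metastatic livers, did not pass (0.43 ± 0.18, edgeR, adjusted p = 0.0782). *Rfx5* was at -0.00 ± 0.15 in the same test (edgeR, adjusted p = 0.990), at 1.36 to 1.86 RPKM in control livers and 0.938 to 2.15 RPKM in pre-metastatic livers, while *Rfxank*, another RFX subunit, fell by 0.59 (SE 0.17, edgeR, adjusted p = 0.0176). *Ifng* had too few counts to be tested in the livers, at 0 to 0.0809 RPKM in control livers and 0 to 0.185 RPKM in pre-metastatic livers.

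In tumors *Ifng* was at 0.187, 0.892 and 2.29 RPKM (lowest, median and highest), and the tumors of M4 and M5, highest in most of the 10 genes, were also the 2 highest in *Ifng*. Against pre-metastatic liver, *Ifng* was higher by 3.21 ± 0.66 under TMM (edgeR, adjusted p = 0.000153) and *Irf1* by 1.10 ± 0.20 (edgeR, adjusted p = 5.53e-05). *Socs1*, the interferon feedback inhibitor, was at 18.2 to 36.1 RPKM in tumors against 2.74 RPKM or less in livers, and higher by 3.07 ± 0.24 under TMM. *Irf8*, a factor of myeloid cells, was higher by 1.30 ± 0.18. *Ifnar2*, a chain of the type I interferon receptor, was lower under both scalings (-1.78 and -0.60), and *Irf2* was lower under TMM (-1.19) but at -0.00 with library totals. *Rfx5* was at -0.03 ± 0.12 under TMM and 1.14 with library totals. Of the 17 genes tested, 7 were called higher and 7 lower than in pre-metastatic liver under TMM, and 8 higher and 8 lower than in control liver. These shares lie near those of all genes tested, 43.8% higher and 39.5% lower, and 44.2% and 38.1%, in the same order. With library totals, 15 and 16 of the 17 genes were above 0 in these comparisons. Against control liver, *Ifng* was higher by 4.0 ± 0.79 and *Irf1* by 1.56 ± 0.27 under TMM.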

How the data were processed

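Poly(A) RNA of 23 libraries was sequenced. Per the labels, the authors' processing notes name HISAT2, HTSeq 0.6.0 and mm10, and the strand setting of the counting is not given in the sources used here. The authors deposited, for each gene, raw read counts and RPKM, and RPKM recomputed from the counts matched within a relative difference of 1.75e-06. Columns were matched to samples by the mouse number and tissue in their names, and no per-sample column was left over. The liver and tumor of a mouse share its number.

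Counts were tested with edgeR 4.0.16 in R 4.3.3 (TMM, quasi-likelihood test, two-sided) on genes that reached 10 counts in 5 or more libraries of the 2 groups compared, with Benjamini-Hochberg adjustment over all of them and a threshold of 0.05. SEs of log2 fold changes were taken from the F statistic. Ratios of subunits were tested by two-sided exact permutation tests. Alternatives were DESeq2 1.42.0, RLE, upper-quartile and library-total scaling, no count minimum, an exact rank test on RPKM, clock phase, pairing by mouse, and leaving out libraries. On simulated counts edgeR recovered 130 of 190 changed genes for the liver comparison with 5 false calls. It recovered 139 of 190 with 13 false calls for tumor against pre-metastatic liver, and 126 of 191 with 4 for tumor against control liver. These runs held 16707, 19113 and 18808 genes in that order. Far more genes were called in the data, 5270, 16457 and 15895. The rate of recovery and of false calls where that many genes differ was not tested. The remaining steps ran in Python 3.11.15 (with pandas 2.3.3, numpy 2.4.6, and matplotlib 3.10.9 for figures).

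Because the liver and tumor are organs of the same 9 mice, the mouse number pairs them. The correlation of their deviations from the group means over 14185 genes averaged 0.07 (range -0.08 to 0.24) within mice and -0.01 between mice. The 10 genes were named in every comparison. From the other lists, fixed proteasome and interferon genes were named, plus up to 2 rises and 2 falls per list and comparison, the largest among called genes whose TMM-scaled counts did not overlap between groups. Some results of these lists are not reported here. *Rfxank*, *H2-Q6*, *H2-T23*, *Canx* and *Gm12250* were named for other reasons after their values had been seen or by their likeness to the 10 genes. The 10 genes, the lists and the alternatives were chosen with earlier results of these data known. Counts set the precision of single values, and counting error does not cover variation between mice.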

Additional observations from a re-analysis of the deposited data

How the results depend on the processing

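Results of single genes kept direction and side of the threshold in 443 of 460 fits without 1 library and 219 of 250 other fits. Library totals and the exact rank test on RPKM reversed *B2m* and *Erap1* in the tumor: against pre-metastatic liver to 0.61 and 0.41 with totals and 0.62 and 0.39 (difference of mean log2(RPKM + 1)) by the rank test, and against control liver to 0.84 and 0.59 and to 0.83 and 0.55. The fit with library totals differed from the main fit in the scaling alone. It moved the median log2 fold change of all genes from 0.13 to 1.30 and from 0.18 to 1.26 in these comparisons. The rank test on RPKM differed in its statistic and pseudocount as well, and its medians were 0.50 and 0.48. In the livers, 3009 genes were called higher and 2261 lower under TMM, and 2375 and 2792 with library totals. The exact rank test called 5 rather than 8 of the 10 genes in the livers (*H2-K1*, *B2m* and *Psmb9* were lost), all higher, where it called 11.5% of all genes higher and 15.9% lower, and the cause was not tested. Without 1 library, 7 to 10 of the 10 genes were called in the livers (4271 to 5281 genes in all), 8 to 10 in tumor against pre-metastatic liver, and 9 to 10 against control liver.

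With the replicate block (pairing by mouse), 16329 genes were called against 16457 without it, and 9 of the 10 genes rather than 8, where 82.7% of all genes were called with it. The blocked fit in the 4 late-phase mice alone called 5 of the 10 (4 higher and *Erap1* lower), where 70.5% of all genes tested were called. The log2 difference of *Psmb8/Psmb5* was 0.66 by the paired exact sign-flip test as well (p = 0.00391, the smallest it can give). Without the tumors of M10 and M12, a setting chosen after seeing the data, *Tap2* passed (0.36, edgeR, adjusted p = 0.0463). Of the 5 genes most like the 10, 2 stayed among the 5 highest within the pre-metastatic livers and 1 within the tumors. All 9 ratio tests stayed past the threshold in every setting run.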
